A study of Mus musculus with 6 samples.

Results

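The genes described here are 32 that mark astrocytes, the star-shaped glia that feed, buffer and wall off other cells of the brain. They were picked by gene symbol from a table of 39017 mouse genes, and each of the 32 was found. Of these, 16 mark resting astrocytes (Aqp4, Aldh1l1, Slc1a2, Slc1a3, Fgfr3, Aldoc, Slc4a4, Agt, Sox9, F3, Acsbg1, Atp1b2, Ntsr2, Slc7a10, Mlc1 and Gpc5). The other 16 are known to be induced in reactive astrocytes after injury or inflammation (Gfap, Vim, Lcn2, Cd44, Osmr, Timp1, Steap4, Aspg, Cxcl10, Cd109, Emp1, Tgm1, S100a10, S100a6, Ggta1 and Fbln5). The counts come from corpus callosum, a white matter tract, of C57BL/6 mice that carry RiboTag and Olig1-Cre, so that cells with past Cre activity carry HA-tagged RPL22 in their ribosomes. RNA was collected by immunoprecipitation with an anti-HA antibody. The 3 cuprizone libraries (replicates 30, 31 and 32) came from mice fed 0.2% cuprizone, a copper chelator that kills oligodendrocytes, and the 3 control libraries (replicates 24, 26 and 27) from mice labelled vehicle and control. Mice of both groups carry the tag and the Cre. The protocol describes females of 8 to 10 weeks fed for 6 or 9 weeks, with 3 weeks of recovery, and does not say which of these the cuprizone libraries had. Nothing in the labels states that each library is a separate animal, so p-values measure the spread between these libraries, which may be in part technical.

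Resting astrocytes clear glutamate through the transporters encoded by Slc1a2 and Slc1a3, move water and ions at endfeet on blood vessels, and supply metabolites to neurons and oligodendrocytes. Reactive astrocytes enlarge their intermediate filament skeleton of GFAP and vimentin and switch on secreted, cell surface and matrix proteins. Cytokines that signal through the shared receptor subunit gp130 and the transcription factor STAT3 are a known route to this state, and AP-1 factors act on many genes of injury. Cuprizone lesions of the corpus callosum are known for strong astrogliosis beside the loss of myelin. The libraries are labelled as oligodendrocyte RNA, yet the transcripts of the resting genes as a group and of Gfap were abundant in every one of them. The 16 resting genes held 1.23% to 2.48% of the counts of a cuprizone library and 1.91% to 2.08% of those of a control library. The 16 reactive genes held 0.880% to 1.37% in cuprizone and 0.396% to 0.837% in control. Gfap alone made up 85.2% to 90.7% of the reactive counts in cuprizone and 91.5% to 93.7% in control. Without Gfap the reactive genes held 0.0961% to 0.180% in cuprizone and 0.0249% to 0.0630% in control. Unselected tissue RNA was not analysed here, so the share of these transcripts that came down on tagged ribosomes is not known, and in such bulk RNA a change in the number of astrocytes and one in the RNA per cell cannot be told apart.

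Upstream sequence is shown for 5 of the genes because the STAT and AP-1 routes end at such sites. The 5 were picked among genes with a match to a motif of these routes, and windows without a match are not shown. RefSeq windows on GRCm38.p6, from 250 bases before to 50 after the start of transcription, were at hand for 27 of the 32 genes. They are printed 5′ to 3′ on the strand of the gene, with the STAT motif TTCNNNGAA and the AP-1 motif TGANTCA in capitals. Each motif reads the same on both strands. Tgm1, a transglutaminase, has a pair of STAT matches in the window at chr14:55713443-55713742 (minus strand). Emp1, a small tetraspan membrane protein, has both motifs, a pair of each, in the window at chr6:135362681-135362980 (plus strand). The second AP-1 match overlaps the second STAT match, so that they form a single run of capitals. Tgm1 and Emp1 each have another window, at another start site, that holds neither motif (chr14:55713039-55713338 and chr6:135367243-135367542). Gfap, the filament protein that defines astrocytes, has a STAT match across the RefSeq start that sets its window (chr11:102897151-102897450, minus strand). That start lies inside the GENCODE span of the gene (102887336 to 102900912), so the position of the match depends on the start used. Osmr, a receptor subunit that pairs with gp130 to bind oncostatin M, has an AP-1 match (chr15:6874264-6874563, minus strand), and the resting gene Slc1a3 a STAT match (chr15:8710758-8711057, minus strand).
Tgm1: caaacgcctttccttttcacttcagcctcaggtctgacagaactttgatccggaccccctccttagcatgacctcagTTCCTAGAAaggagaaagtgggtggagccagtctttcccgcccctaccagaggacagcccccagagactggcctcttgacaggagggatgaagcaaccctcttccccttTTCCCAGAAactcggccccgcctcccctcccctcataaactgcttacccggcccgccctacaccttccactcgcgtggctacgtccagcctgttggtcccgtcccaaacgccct
Emp1: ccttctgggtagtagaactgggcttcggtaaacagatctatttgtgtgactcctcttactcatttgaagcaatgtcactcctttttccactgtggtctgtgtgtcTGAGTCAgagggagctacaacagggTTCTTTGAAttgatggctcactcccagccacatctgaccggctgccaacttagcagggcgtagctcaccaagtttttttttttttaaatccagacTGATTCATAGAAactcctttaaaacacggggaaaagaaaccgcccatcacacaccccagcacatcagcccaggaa
Gfap: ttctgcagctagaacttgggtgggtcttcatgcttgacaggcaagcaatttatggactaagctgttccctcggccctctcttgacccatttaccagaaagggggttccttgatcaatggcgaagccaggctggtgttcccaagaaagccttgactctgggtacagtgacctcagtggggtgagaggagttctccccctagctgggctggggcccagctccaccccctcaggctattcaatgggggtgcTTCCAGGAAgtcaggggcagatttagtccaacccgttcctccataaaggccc
Osmr: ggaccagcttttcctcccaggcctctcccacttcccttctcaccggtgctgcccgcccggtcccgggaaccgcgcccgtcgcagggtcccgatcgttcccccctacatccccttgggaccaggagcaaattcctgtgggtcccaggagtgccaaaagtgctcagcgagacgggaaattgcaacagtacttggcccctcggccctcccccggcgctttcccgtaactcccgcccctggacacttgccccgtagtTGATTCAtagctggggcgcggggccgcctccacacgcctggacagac
Slc1a3: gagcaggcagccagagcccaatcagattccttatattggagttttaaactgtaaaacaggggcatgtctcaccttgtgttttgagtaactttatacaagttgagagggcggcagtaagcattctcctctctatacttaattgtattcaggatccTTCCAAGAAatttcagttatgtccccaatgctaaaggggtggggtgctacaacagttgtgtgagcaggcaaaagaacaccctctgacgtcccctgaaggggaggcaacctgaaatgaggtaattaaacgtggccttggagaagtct

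The STAT motif was found for 4 of the 14 reactive genes with a window (Gfap, Tgm1, Emp1 and Steap4) and for 5 of the 13 resting genes (Slc1a3, Aldoc, Agt, Acsbg1 and Ntsr2). Of all 32851 windows, 8.3% hold it, and 9.55% of the 27025 genes have it in at least 1 window. The AP-1 motif was found for 3 of the 14 reactive genes (Emp1, Osmr and Cxcl10) and for 1 of the 13 resting genes (F3), beside 7.81% of all windows and 8.97% of all genes. A match is a run of letters in a short window and does not show that a factor binds there.

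The resting genes showed no shift in a shared direction between the groups, and their differences were mostly within the spread of the cuprizone libraries. None of the 16 passed an adjusted p of 0.05 with edgeR's quasi-likelihood test, DESeq2 or limma-voom, and 1 of them (Slc7a10) had an unadjusted p under 0.05 with edgeR. Over all 16569 genes tested with edgeR, 7.57% were called, 1.87% higher and 5.7% lower in cuprizone, and 23.3% had an unadjusted p under 0.05. The shares called lower were 8.46% with DESeq2 and 5.87% with limma-voom. Slc1a2 was the one resting gene with each cuprizone library below each control, a pattern seen in 17.6% of all tested genes, and no resting gene had the opposite one. The median log2 fold change of the resting genes was -0.04, against 0.02 for all tested genes, and single genes ran from -0.62 to 0.37. With 1 library left out the median lay between -0.27 (without cuprizone replicate 31) and 0.12 (without cuprizone replicate 32). Without cuprizone replicate 32, 2 of the 16 passed as higher, F3 (0.62 ± 0.12, SE) and Mlc1 (0.60 ± 0.14), with 2.77% of all genes tested called higher.

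**Figure D1:**
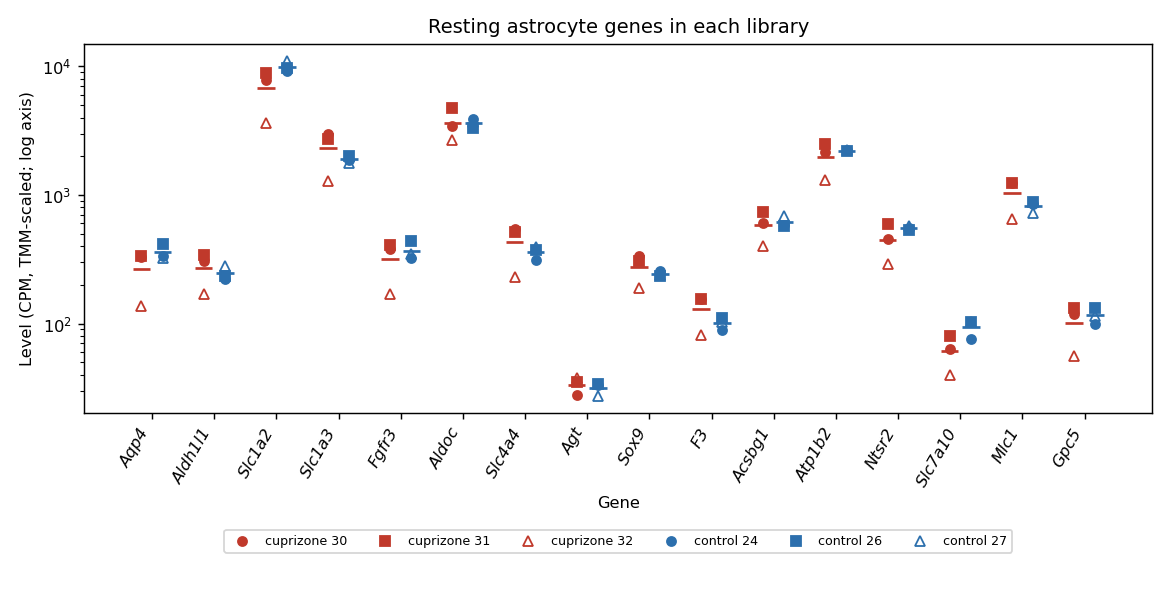
Level of each resting astrocyte gene in the 3 cuprizone and the 3 control libraries, in CPM on a log axis, with 1 symbol per library and a bar at each group mean. The open triangles of cuprizone replicate 32 lie below both other cuprizone libraries for 15 of the 16 genes.

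The genes of both glutamate transporters had fold changes of opposite sign. Slc1a2, which encodes the main glutamate transporter of forebrain astrocytes, was at 7832, 8945 and 3599 CPM (counts scaled to the TMM-adjusted size of each library) in cuprizone replicates 30, 31 and 32, against 9150, 9733 and 11072 CPM in control replicates 24, 26 and 27. Each cuprizone library was below each control library, but the log2 fold change of -0.56 ± 0.36 (SE) did not pass (edgeR adjusted p = 0.399). Slc1a3, the related transporter that is also strong in radial glia and Bergmann glia, was at 3002, 2702 and 1285 CPM in cuprizone, against 1866, 2013 and 1787 CPM in control. Here replicates 30 and 31 were above every control and replicate 32 below every control (0.30 ± 0.32, edgeR adjusted p = 0.62). The count of Slc1a2 per count of Slc1a3, a ratio taken within each library and free of scaling, was 2.61, 3.31 and 2.80 in cuprizone, against 4.90, 4.83 and 6.20 in control. The groups did not overlap in that ratio, which was chosen after the values were seen and is given without a test.

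The other resting genes fall into roles as follows. Among transporters and membrane proteins, Aqp4, the water channel of endfeet, was at 328, 336 and 138 CPM in cuprizone, against 334, 415 and 324 CPM in control (-0.42 ± 0.33, edgeR adjusted p = 0.499). Replicates 30 and 31 were within the control range and replicate 32 was below it. Mlc1, a membrane protein of endfeet whose loss causes a leukoencephalopathy in humans, was at 1241, 1235 and 652 CPM in cuprizone, against 854, 879 and 723 CPM in control. Replicates 30 and 31 exceeded every control for Mlc1, and replicate 32 was below every control. Slc7a10, an exchanger of small neutral amino acids that include D-serine, was at 63.1, 80.4 and 39.8 CPM in cuprizone, against 76.2, 103 and 102 CPM in control (-0.62 ± 0.26, edgeR adjusted p = 0.209). Its groups overlapped through replicate 31 and control replicate 24. Slc4a4, a sodium bicarbonate cotransporter, and Atp1b2, a beta subunit of the sodium pump, had log2 fold changes of 0.25 and -0.16. Neither is distinguishable from its standard error at this number of libraries (0.32 and 0.27).

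Of the enzymes, Aldoc, a glycolytic aldolase, averaged 3615 ± 1031 CPM in cuprizone and 3616 ± 280 CPM in control (SD, n = 3 per group). Its means were nearly equal, with a far wider spread in cuprizone. Aldh1l1, a folate enzyme used as a marker of astrocytes across brain regions, averaged 272 ± 92.1 CPM in cuprizone and 246 ± 30.5 CPM in control. Acsbg1, an acyl-CoA synthetase, had a log2 fold change of -0.09 ± 0.24. Sox9, a transcription factor of astrocyte nuclei, was at 337, 306 and 189 CPM in cuprizone, against 258, 234 and 240 CPM in control, the same pattern of replicates 30 and 31 above control and replicate 32 below. F3, which encodes tissue factor, the cell surface trigger of coagulation, was at 155, 154 and 82.0 CPM in cuprizone, against 88.8, 111 and 103 CPM in control. The receptors Fgfr3, for fibroblast growth factors, and Ntsr2, for neurotensin, and the glypican Gpc5 had log2 fold changes of -0.20, -0.32 and -0.18. Agt, which encodes angiotensinogen, was at 27.8, 35.1 and 37.4 CPM in cuprizone, against 33.2, 33.6 and 27.2 CPM in control, and it alone of the 16 had its highest cuprizone value in replicate 32.

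Cuprizone replicate 32 stood apart from its group in these genes. Its level over the mean of replicates 30 and 31 had a median of 0.528 across the 16 resting genes, with 15 of them under 1, and of 0.582 across the 16 reactive genes, with 16 under 1. In its summed level the resting group was at 20995, 23752 and 11310 CPM in cuprizone replicates 30, 31 and 32, against 20858, 21325 and 22655 CPM in controls. Markers of other cells stood out in that library too. The 16 microglia markers summed to 2476, 3169 and 5863 CPM in cuprizone, against 3275, 1809 and 1651 CPM in control. The 16 endothelial and mural markers summed to 128, 68.0 and 266.5 CPM in cuprizone, against 76.8, 64.3 and 83.5 CPM in control. The chi-square per degree of freedom of its counts was 85.1 and 101 against replicates 30 and 31, where these had 26.6 between them.

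The reactive genes were higher in cuprizone, by a median of 1.16 on the log2 scale over the 15 that passed the filter on low counts, or 2.23-fold. All 6 libraries had Steap4 at 1 to 22 counts, and that gene was not tested. The median of all tested genes was 0.02. Markers of other cells had positive medians too, at 1.29 for the endothelial and mural list (13 of 14 positive), 0.67 for microglia (14 of 16), 0.60 for ependymal cells (7 of 9) and 0.35 for neurons (13 of 14), and their part in the result was not tested. Without cuprizone replicate 32 these medians were 0.40, 0.27, 0.12 and -0.10, and that of the reactive genes was 1.38. Of the 15, 14 had a positive fold change and 2 were called higher by edgeR, Tgm1 and S100a10, while none was called lower (10 higher with DESeq2, which called 5.21% of genes higher, and 2 with limma-voom, which called 1.77%). An unadjusted p under 0.05 was found for 11 of the 15, in each case with the higher level in cuprizone, where 10.5% of all genes had such a p in that direction. In 12 of the 15 the 3 cuprizone libraries lay above all 3 controls, as they did for 12.6% of all tested genes. The median was 0.78 when control replicate 27 was left out and 1.51 when control replicate 24 was. No reactive gene was called once control 26, control 27, cuprizone 30 or cuprizone 31 was dropped, 1 was called once control 24 was, and 7 once cuprizone 32 was.

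**Figure D2:**
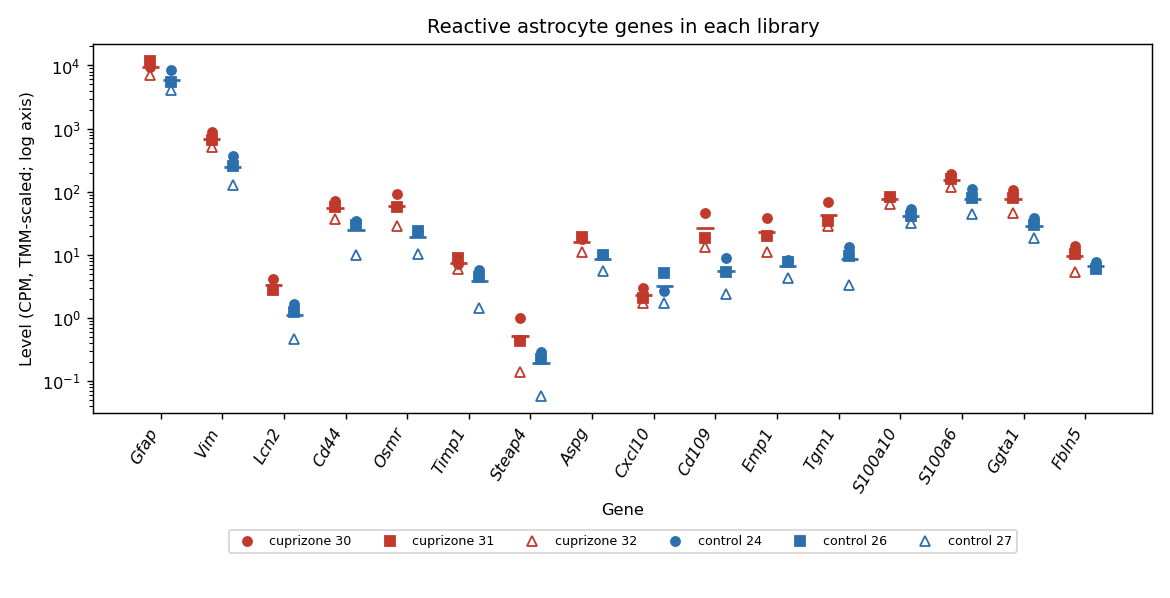
Level of each reactive astrocyte gene in the 3 cuprizone and the 3 control libraries, in CPM on a log axis, with 1 symbol per library and a bar at each group mean. Control replicate 27 is the lowest control for 15 of the 16 genes, and cuprizone replicate 32 the lowest cuprizone library for 15 of the 16.

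The filament genes Gfap and Vim had positive fold changes that missed the threshold with edgeR. Gfap was at 9352, 11883 and 7190 CPM in cuprizone, against 8454, 5483 and 4036 CPM in control. Control replicate 24 was above cuprizone replicate 32, and the log2 fold change of 0.66 ± 0.35 (SE) did not pass (edgeR adjusted p = 0.299). Per kilobase of exon Gfap was at 2246 ± 557 in cuprizone and 1420.3 ± 534 in control (CPM per kilobase, SD, n = 3), and in control it ranked 15 among 16313 tested genes with a known length. Vim was at 881, 668 and 504 CPM in cuprizone, against 370, 253 and 129 CPM in control, with no overlap between groups (1.45 ± 0.39, edgeR adjusted p = 0.0765; 0.0021 with DESeq2). Vim is also made by progenitors, microglia and vascular cells, so its reads need not be those of astrocytes.

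Other filament genes of a list drawn up by function, with earlier results of these data known, went in both directions. Of 12 tested, 1 rose and 1 fell with edgeR, beside 1.87% and 5.7% of all genes. Nes, which encodes nestin, a filament of progenitors and reactive astrocytes, rose to 46.9, 25.5 and 28.7 CPM in cuprizone, against 15.5, 6.80 and 8.61 CPM in control (1.71 ± 0.36, edgeR adjusted p = 0.0329). Dropping control 26, control 27 or cuprizone 30 ended that call, with an adjusted p of at most 0.141. Synm, which encodes synemin, a partner of vimentin and GFAP in astrocyte filaments, fell to 34.4, 35.2 and 32.2 CPM in cuprizone, against 112, 121 and 121 CPM in control (-1.80 ± 0.10, edgeR adjusted p = 0.000682). The 3 cuprizone values of Synm lay within 3 CPM of each other, replicate 32 included, and the fall passed in each of 12 other fits (other scalings, filters and tools, and 1 library left out), with an adjusted p of at most 0.00642. Which cells the reads of Synm came from was not tested. The median of the list was 0.17.

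Among reactive genes of the cell surface and of cytokine sensing, Osmr was at 91.5, 56.5 and 28.2 CPM in cuprizone, against 24.3, 23.7 and 10.5 CPM in control. No cuprizone value was below a control value (1.59 ± 0.47, edgeR adjusted p = 0.0983). Cd44, the hyaluronan receptor, was at 71.6, 56.6 and 36.4 CPM in cuprizone, against 34.6, 29.3 and 9.84 CPM in control. Its lowest cuprizone and highest control values were nearly level (1.16 ± 0.45, edgeR adjusted p = 0.182). Cd109, a membrane-anchored protein that binds transforming growth factor beta, was at 46.8, 18.9 and 13.4 CPM in cuprizone, against 8.89, 5.32 and 2.44 CPM in control. The spread within cuprizone was wide and replicate 30 was highest (2.25 ± 0.59, edgeR adjusted p = 0.0699). Emp1 was at 38.1, 20.3 and 11.2 CPM in cuprizone, against 8.31, 7.76 and 4.25 CPM in control (1.78 ± 0.46, edgeR adjusted p = 0.0683). The order of the cuprizone libraries was the same for Osmr, Cd44, Cd109 and Emp1, with replicate 30 highest and replicate 32 lowest. It was not particular to them, as replicate 30 was highest for 12 and replicate 32 lowest for 15 of the 16 reactive genes.

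Tgm1, which cross-links proteins and is best known from the skin barrier, rose to 68.0, 33.9 and 28.7 CPM in cuprizone, against 13.3, 9.63 and 3.32 CPM in control. Its log2 fold change of 2.32 ± 0.53 (SE), or 4.99-fold, was the largest of the 31 tested genes (edgeR adjusted p = 0.0434). The call was lost without control replicate 24, 26 or 27 (adjusted p = 0.0657, 0.138 and 0.0796) and without cuprizone replicate 30 or 31 (0.12 and 0.0617), with a log2 fold change between 1.84 and 2.77. Tgm1 lies on chromosome 14 from 55700009 to 55713926 (ENSMUSG00000022218, GRCm38), and 182 of its 3162 exonic bases are shared with an antisense gene, which matters only if reads were counted without strand. S100a10, a calcium-family protein that forms a complex with the product of Anxa2, rose to 81.5, 83.2 and 64.7 CPM in cuprizone, against 52.9, 40.7 and 32.2 CPM in control. The log2 fold change was 0.87 ± 0.20 (edgeR adjusted p = 0.0449), with the groups apart in every library. That call was lost without control replicate 26 or 27 (adjusted p = 0.16 and 0.144) and without cuprizone replicate 30 or 31 (0.138 and 0.097). S100a10 lies on chromosome 3 from 93555080 to 93564643 (ENSMUSG00000041959).

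S100a6, a related calcium-binding protein, was at 188, 158 and 121 CPM in cuprizone, against 109, 81.0 and 44.5 CPM in control (0.99 ± 0.33, edgeR adjusted p = 0.124). The groups did not overlap. Of 13 tested genes in a list of other S100 and annexin genes, 4 rose and none fell with edgeR, beside 1.87% and 5.7% of all genes (4 and 0 with limma-voom, 5 and 1 with DESeq2, 2 lower at an unadjusted p under 0.05), and the median was 0.56. None of the 13 was called when scaled by the resting genes. Anxa2, the membrane-binding partner of S100a10, rose to 51.1, 38.5 and 49.1 CPM in cuprizone, against 24.9, 19.9 and 10.9 CPM in control (1.32 ± 0.29, edgeR adjusted p = 0.0378). S100a11, Anxa4 and Anxa7 rose with log2 fold changes of 1.44, 0.96 and 0.63. Their adjusted p, and that of Anxa2, exceeded 0.05 when control 26, control 27 or cuprizone 30 was dropped (for Anxa4, when any library was; for S100a11 and Anxa2 also cuprizone 31, for Anxa2 also cuprizone 32, and for Anxa7 also control 24) and reached 0.134 at most. Between 0 and 3 of the list, not always of these 4, were called higher with 1 library left out. Without cuprizone replicate 31, 1 of the list was called lower, beside 5.44% of all genes. S100b, which both astrocytes and oligodendrocytes make, was at 456, 666 and 405 CPM in cuprizone, against 962, 677 and 880 CPM in control. Each cuprizone value of S100b was below each control value, as in 17.6% of all tested genes (-0.72 ± 0.24, edgeR adjusted p = 0.131).

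Of the secreted reactive genes, Lcn2, which binds iron-carrying siderophores, was at 4.23, 2.78 and 2.87 CPM in cuprizone, against 1.65, 1.25 and 0.466 CPM in control (1.55 ± 0.43, edgeR adjusted p = 0.0825). These levels rest on 94, 65 and 61 counts in cuprizone, against 28, 22 and 8 counts in control. Timp1, an inhibitor of matrix metalloproteinases, was at 7.16, 8.89 and 6.03 CPM in cuprizone, against 5.83, 4.53 and 1.45 CPM in control (0.90 ± 0.45, edgeR adjusted p = 0.278). The groups were apart by a narrow gap between cuprizone replicate 32 and control replicate 24. Cxcl10, a chemokine for T cells, was the one tested reactive gene with a lower mean in cuprizone, at 3.02, 2.09 and 1.74 CPM, against 2.71, 5.15 and 1.75 CPM in control. Its groups overlapped, and without control replicate 26 its log2 fold change of -0.49 ± 0.42 became 0.04. Fbln5, an elastic fibre protein also made by vessels, was at 13.7, 10.4 and 5.28 CPM in cuprizone, against 7.60, 5.89 and 6.58 CPM in control, and passed without cuprizone replicate 32 (0.84 ± 0.19, edgeR adjusted p = 0.0475).

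Of the enzymes of the group, Ggta1 and Aspg were higher in each cuprizone library than in each control, and Steap4 was not. Ggta1, a galactosyltransferase, was at 108, 80.0 and 46.7 CPM in cuprizone, against 39.0, 29.96 and 18.7 CPM in control (1.42 ± 0.36, edgeR adjusted p = 0.063). Aspg, an asparaginase, was at 17.9, 19.2 and 11.1 CPM in cuprizone, against 10.1, 10.1 and 5.53 CPM in control (0.91 ± 0.30, edgeR adjusted p = 0.124). Steap4, a metalloreductase of iron and copper, had 22, 10 and 3 counts in cuprizone, against 5, 4 and 1 counts in control, with the groups overlapping. Without cuprizone replicate 32 the genes called were Tgm1, S100a10, Cd109, Emp1, Osmr, Ggta1 and Fbln5, with adjusted p from 0.018 to 0.0475.

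**Figure D3:**
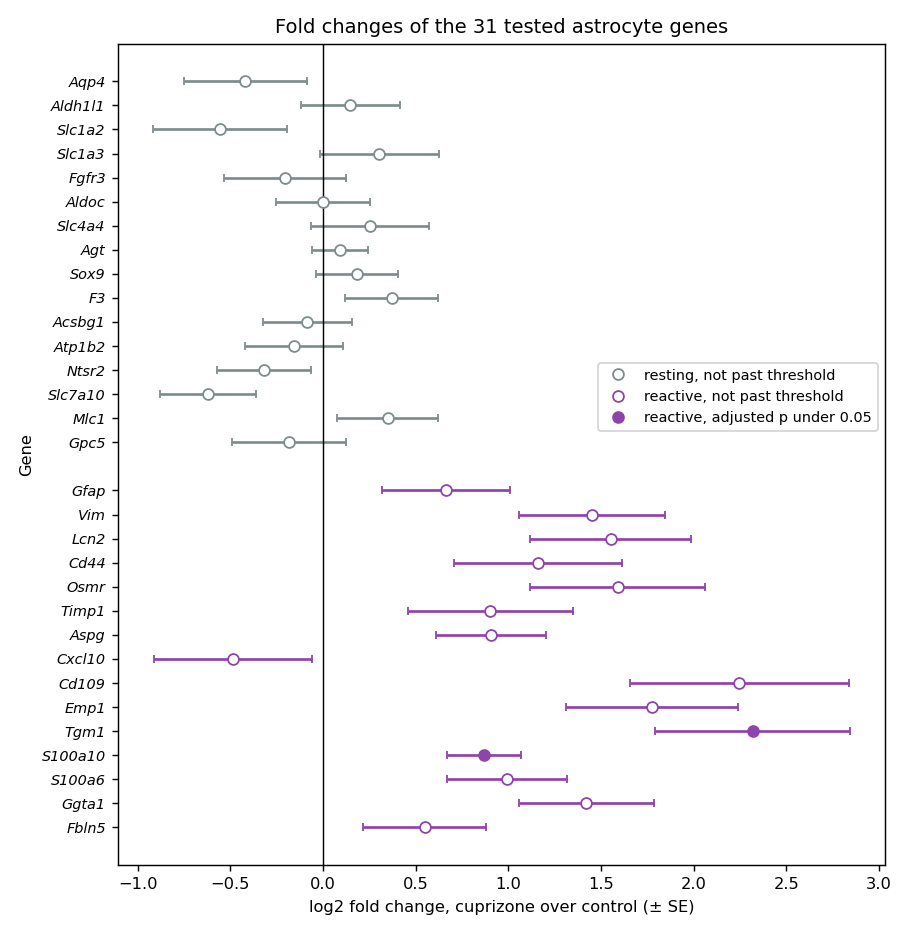
Log2 fold change of cuprizone over control with its standard error for the 31 tested genes, resting genes in grey and reactive genes in purple, and filled symbols for an edgeR adjusted p under 0.05. Resting genes lie between -0.62 and 0.37 on both sides of 0, and reactive genes lie between -0.49 (Cxcl10) and 2.32 (Tgm1).

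Per length, the resting genes were the more abundant in control. Their levels ran from 16.6 (Agt) to 1108 (Aldoc) CPM per kilobase of exon in control, in the order Aldoc, Slc1a2, Atp1b2, Mlc1, Slc1a3, Ntsr2 and Acsbg1 above 100 CPM per kilobase. Ntsr2 (178 ± 6.27) and Acsbg1 (171 ± 16.4) did not differ beyond their spread in control, and neither did Sox9 (59.0 ± 3.00), Aqp4 (57.4 ± 7.96), Aldh1l1 (54.4 ± 6.75) and Fgfr3 (51.5 ± 8.42). Beside Gfap, the reactive genes S100a6, Vim and S100a10 were at 57.2, 52.8 and 34.6 CPM per kilobase in control, and the other 12 were at 6.20 (Ggta1) or less. In cuprizone the corresponding means were 114, 144 and 63.1 CPM per kilobase. Tgm1 had the eighth level of the reactive genes in control, at 2.76 ± 1.59, and stood at 13.8 ± 6.75 CPM per kilobase in cuprizone, above Timp1 and Cd44 (8.29 and 8.10 in cuprizone). With those spreads the order of these genes in cuprizone is not firm.

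The libraries within each group also differed along the reactive genes. Control replicate 24 had the highest control level for 14 of the 16 reactive genes and replicate 27 the lowest for 15. The median log2 deviation from the control mean over the 15 reactive genes above 1 CPM was 1.62, 1.24 and 0.72 in cuprizone replicates 30, 31 and 32, against 0.48, 0.18 and -0.67 in control replicates 24, 26 and 27. For the resting genes the same value was 0.01, 0.23 and -0.63 in cuprizone, against -0.08, 0.08 and 0.01 in control. The controls lay farther from each other in the reactive genes than in the resting genes. Control replicate 24 also had the highest microglia marker sum of the controls, and the part of this in the result was not tested. Cuprizone replicate 32 had the highest microglia sum of all and the lowest reactive deviation of its group.

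**Figure D4:**
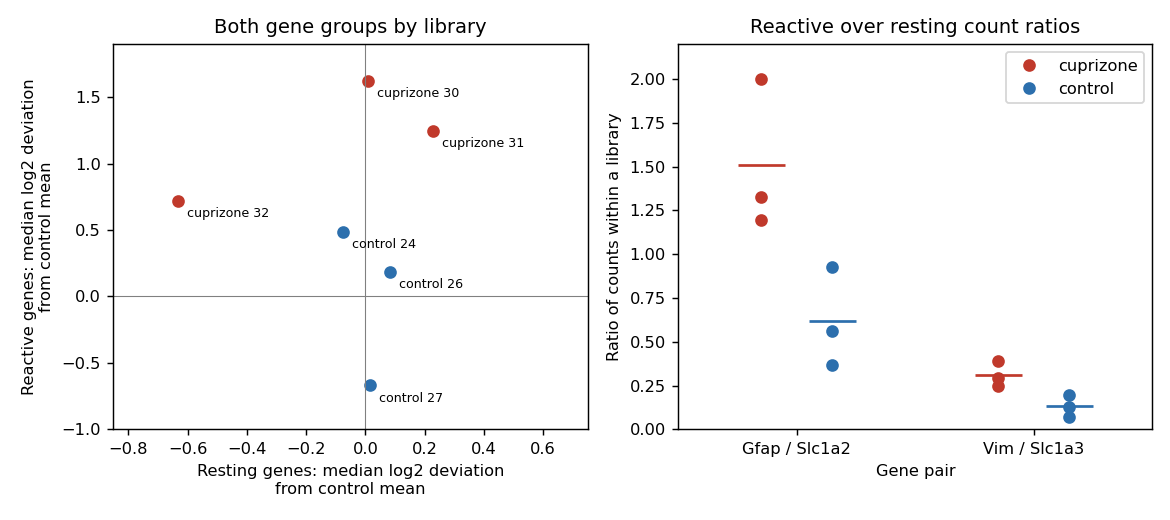
Left, median log2 deviation from the control mean of the reactive genes (vertical) against that of the resting genes (horizontal) for each of the 6 libraries; right, count of Gfap per count of Slc1a2 and of Vim per count of Slc1a3 within each library, with group means as bars. The 3 cuprizone libraries lie highest on the vertical axis, and both ratios are higher in each cuprizone library than in each control.

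Count ratios within a library set Gfap and Vim against the glutamate transporter genes, and for Gfap the outcome depended on which of them was used. These pairs were chosen after the values were seen and are given without a test. The count of Gfap per count of Slc1a2 was 1.19, 1.33 and 1.998 in cuprizone, against 0.924, 0.563 and 0.365 in control. The count of Vim per count of Slc1a3 was 0.293, 0.247 and 0.392 in cuprizone, against 0.198, 0.125 and 0.0723 in control. The count of Gfap per count of Slc1a3 was 3.11, 4.40 and 5.60 in cuprizone, against 4.53, 2.72 and 2.26 in control, so that the groups overlapped, with cuprizone replicates 30 and 31 below control replicate 24. The count of Vim per count of Slc1a2 was 0.112, 0.0746 and 0.140 in cuprizone, against 0.0404, 0.0260 and 0.0117 in control. Vim was thus apart between the groups against either transporter gene, and Gfap against Slc1a2 alone, the resting gene with each cuprizone library below each control. When library sizes were instead set by the median ratio over the 16 resting genes, an alternative added after the data were seen, 4 of 15 reactive genes were called higher and none lower (Tgm1, Emp1, Cd109 and Ggta1, adjusted p from 0.0248 to 0.0442), beside 0.561% of all genes called higher and 2.14% lower. S100a10 was not called in that fit (0.98 ± 0.33, adjusted p = 0.192). The groups did not overlap in 13 of the 15 tested reactive genes, each with cuprizone above, as in 7.39% of all tested genes, while Gfap and Cxcl10 overlapped. That scaling moved the median of all tested genes to 0.18, so fold changes on that scale, relative to all genes, are smaller by that amount. On that scale the resting genes ran from -0.57 to 0.41, with Aqp4, Slc1a2, Atp1b2, Ntsr2 and Slc7a10 below control in every cuprizone library and Aldh1l1, Slc1a3, F3 and Mlc1 above, where 7.4% of all tested genes were below and 7.39% above. Those shares are not a like comparison, because the 16 resting genes themselves set that scale. Its centre among them, and in part their separation between groups, follow from the scaling. With TMM scaling 1 of the 16 was below and 0 above. None of the 16 was called on the scale they set, and Slc1a2 had an unadjusted edgeR p of 0.0454 there.

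Further genes of astrocytes were taken from lists drawn up by function, with earlier results of these data known. Of 24 other resting astrocyte genes neither edgeR nor limma-voom called any. An edgeR p under 0.05 before adjustment was found for 4 of the 24, beside 23.3% of all genes. DESeq2 called 1 higher and 3 lower, beside 5.21% and 8.46% of all genes. With edgeR, 3 were called higher without cuprizone replicate 32, beside 2.77% of all genes, and 1 (Htra1) was called lower without cuprizone replicate 31, beside 5.44%. Glul, the enzyme that turns glutamate into glutamine, was at 4511, 6454 and 3746 CPM in cuprizone, against 8279, 7900 and 7406 CPM in control, and is also made by oligodendrocytes (-0.68 ± 0.26, edgeR adjusted p = 0.179). Etnppl, a phospho-lyase that breaks down phosphoethanolamine, was at 117, 156 and 82.4 CPM in cuprizone, against 71.1, 31.7 and 56.7 CPM in control, and had the smallest p of the list (1.16 ± 0.34, edgeR adjusted p = 0.0924). Htra1, a secreted serine protease, had a log2 fold change of -0.75 ± 0.23 (edgeR adjusted p = 0.103). In 7 of the 24, Htra1 and Glul among them, each cuprizone value was below each control, as in 17.6% of all tested genes. The opposite pattern was seen in 1 of the 24, and in 12.6% of all tested genes. The median log2 fold change of the 24 was -0.09. The connexin genes Gja1 and Gjb6 and the potassium channel gene Kcnj10 had log2 fold changes of -0.14, 0.49 and 0.07.

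Of 4 further genes induced in reactive astrocytes across kinds of injury, 1 rose, where 1.87% of all tested genes did, the share that also stands beside the next counts. Hspb1, a small heat shock protein, rose to 4.28, 2.95 and 2.73 CPM in cuprizone, against 1.41, 1.08 and 0.757 CPM in control (1.61 ± 0.32, edgeR adjusted p = 0.0258), a call that ended, with an adjusted p of at most 0.105, when control 26, control 27 or cuprizone 30 was dropped. Serpina3n, a serine protease inhibitor, was at 794, 830 and 417 CPM in cuprizone, against 533, 578 and 234 CPM in control, with overlap (0.60 ± 0.40). Of 10 further genes reported after endotoxin, 2 rose and none fell (1 rose when no filter on low counts was used, and Serping1 was lost). Serping1, the inhibitor of the first complement protease, rose to 65.4, 49.3 and 26.5 CPM in cuprizone, against 17.4, 10.6 and 5.005 CPM in control (2.10 ± 0.49, edgeR adjusted p = 0.0461). Ugt1a1 rose with a log2 fold change of 1.34 ± 0.25 (edgeR adjusted p = 0.0223), but it shares exons with its neighbours in the gene cluster, and reads there may have been split. Of 7 tested genes reported after ischaemia 1 rose, the gp130 cytokine gene Clcf1, to 6.44, 4.53 and 3.06 CPM in cuprizone, against 1.53, 1.42 and 0.873 CPM in control (1.87 ± 0.36, edgeR adjusted p = 0.0232). Serping1 and Clcf1 missed the threshold when control 26, control 27, cuprizone 30 or cuprizone 31 was dropped, and Clcf1 also when control 24 was, at adjusted p of at most 0.155 and 0.0918. Ugt1a1 missed it, at 0.0934 or less, on dropping any control or cuprizone 30. The medians of the 3 lists were 1.52, 0.87 and 1.01.

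Of the gp130 and STAT3 pathway genes themselves, 20 were tested, none passed with edgeR, and the median was 0.22. An unadjusted edgeR p under 0.05 was found for 6, beside 23.3% of all genes. Of these, 4 were higher in cuprizone, beside 10.5% of all genes. The limma-voom fit called 1 higher, beside 1.77% of all genes, and DESeq2 1 higher and 2 lower, beside 5.21% and 8.46%. Without cuprizone replicate 31, edgeR called 1 of 21 lower, beside 5.44% of all genes. Without control replicate 24 it called 1 of 20 higher, where 157 of 16872 genes were. Stat3 was at 204, 196 and 125 CPM in cuprizone, against 171, 166 and 125 CPM in control (0.19 ± 0.22, edgeR adjusted p = 0.658). Il6st, which encodes gp130, had a log2 fold change of 0.27 ± 0.24. Socs3, a feedback inhibitor that STAT3 induces, was at 20.5, 14.7 and 9.28 CPM in cuprizone, against 9.96, 7.36 and 4.36 CPM in control, with overlap between cuprizone replicate 32 and control replicate 24 (1.04 ± 0.37, edgeR adjusted p = 0.151). Cntf, a cytokine that signals through gp130 and is made by astrocytes, was at 12.3, 10.4 and 8.67 CPM in cuprizone, against 5.89, 4.25 and 2.10 CPM in control (1.36 ± 0.35, edgeR adjusted p = 0.0665). The phosphatase gene Ptpn11 had a log2 fold change of -0.71 ± 0.19 (edgeR adjusted p = 0.0698).

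Several reactive genes are made by other cells, and markers of those cells were present. Total counts were 19455245 to 22381307 in cuprizone and 18549360 to 18771737 in control. The myelin markers fell, with 16 of 18 called lower by edgeR, beside 5.7% of all genes, and 13 to 18 with 1 library left out. In all 18 each cuprizone library was below each control, as in 17.6% of all tested genes. They summed to 9302 to 17935 CPM in cuprizone, against 69114 to 90381 CPM in control. Genes listed as progenitor markers summed to 1212 to 2011 CPM in cuprizone, against 2080 to 2370 CPM in control. Of these, 1 of 12 was called lower, beside 5.7% of all genes. It was Sox10, which is not limited to progenitors. That call was lost on dropping any control or cuprizone 30, and no progenitor marker was called when scaled by the resting genes. Without cuprizone replicate 31, 2 of the 12 were called lower, beside 5.44% of all genes. Mbp, a main myelin protein, fell by 2.62 on the log2 scale (edgeR adjusted p = 0.0104). None of the microglia (16 tested), endothelial and mural (14), ependymal (9), neuron (14) or fibroblast (3) markers passed with edgeR or limma-voom. Unadjusted edgeR p under 0.05 were found for 1, 5, 1, 0 and 0 of them, beside 23.3% of all genes. Each of these had the higher level in cuprizone, where 10.5% of all genes had such a p in that direction. DESeq2 called 3 endothelial and mural markers higher, beside 5.21% of all genes, and none of the others. Without cuprizone replicate 31, edgeR called 3 of 15 endothelial and mural markers higher (median 1.62), beside 1.63% of all genes. Neutrophil markers, which bear on Lcn2, summed to at most 1.04 CPM in any cuprizone library and 0.396 CPM in any control, with 2 of the 8 at 0 everywhere. Fibroblast markers summed to 43.9 to 66.1 CPM in cuprizone, against 38.1 to 203 CPM in control, ependymal markers to 87.5 to 186 CPM in cuprizone, against 107 to 156 CPM in control, and neuron markers to 4321 to 10214 CPM in cuprizone, against 4193 to 5868 CPM in control. The part of microglia and vascular cells in the reactive genes was not tested. Olig1, whose promoter drives the Cre, fell to 474, 796 and 712 CPM in cuprizone, against 1649, 1318 and 1345 CPM in control (-1.12 ± 0.24, edgeR adjusted p = 0.0334, at most 0.113 on dropping any control or cuprizone 30, each of which ended the call), and Rpl22, which carries the tag, was at 74.0, 87.2 and 67.7 CPM in cuprizone, against 75.1, 62.1 and 73.7 CPM in control.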

How the data were processed

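Counts were used as the authors deposited them, unnormalized whole numbers of reads for each Ensembl gene in 6 libraries. Per the submitters' processing notes, bcl2fastq 2.17 and build mm10 were used. No source used here names the aligner, counter, annotation release or strandedness. Columns were matched to samples by title.

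Gene names and exonic lengths came from GENCODE M21 (GRCm38), in which 37607 of 39017 identifiers matched. The members and lists were chosen with earlier results of these data known. Genes were kept by filterByExpr (minimum count 10, minimum total 15), which left 16569, 31 of the 32 members among them. Counts were fitted with edgeR 4.0.16 in R 4.3.3 (TMM scaling, glmQLFit with robust estimation, glmQLFTest, 2-sided, Benjamini-Hochberg adjustment over all tested genes, threshold 0.05), after a test on simulated data. Standard errors are the log2 fold change divided by the root of F. CPM use TMM-scaled totals, and deviations add 0.5 CPM before log2.

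Alternatives were RLE and upper-quartile scaling, no filter, CPM over 1 in at least 3 samples, DESeq2 1.42.0, limma-voom 3.58.1 and each library left out. Scaling by the resting genes was chosen after seeing the data. Replicates of a group differed by more than sampling noise (chi-square per degree of freedom 24.4 to 101), and each counts once. The 32 members were named throughout. From each further list, the members past the threshold were eligible for naming, up to 4 by adjusted p, or the 2 smallest p where none passed, plus a fixed set. A permutation of 3 against 3 cannot give a 2-sided p under 0.1 and was not used.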

Additional observations from a re-analysis of the deposited data

How the results depend on the processing

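RLE scaling, upper-quartile scaling, the CPM filter and limma-voom left the calls among the 32 genes as they were, with Tgm1 and S100a10 higher. Without a filter 1 reactive gene was called higher, and Tgm1 missed the threshold (adjusted p = 0.0591). DESeq2 called 10 reactive genes and 862 of all genes higher. Scaling by the resting genes gave 4 reactive genes, with 93 of all genes higher and 355 lower. With 1 library left out, 0 to 2 resting and 0 to 7 reactive genes were called higher, and 65 to 464 of all genes higher and 474 to 963 lower. Fewer samples enter those fits, and the cause of the differences between libraries was not tested. The median of the reactive genes was 0.78 to 1.51 and that of the resting genes -0.27 to 0.12.

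Signs turned only in genes that passed in no fit. With a library left out, the log2 fold change of Aldh1l1 was -0.057 to 0.40, of Fgfr3 -0.43 to 0.10, of Aldoc -0.24 to 0.18, of Agt -0.0060 to 0.21, of Acsbg1 -0.30 to 0.12, of Atp1b2 -0.36 to 0.07, of Gpc5 -0.42 to 0.11 and of Cxcl10 -0.78 to 0.040. Aldoc, at -0.00011 as reported, was also at 0.0097 with RLE scaling and with DESeq2, 0.052 with upper-quartile scaling, 0.012 without a filter, 0.0041 with the CPM filter and 0.074 when scaled by the resting genes. No paired analysis was possible because the groups share no replicate number. At under 100 counts per library (Lcn2, Cxcl10 and Steap4), counting error adds to the spread.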

Other observations

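Transcription factors of astrocytes and their precursors were read from a list of 18. Neither edgeR nor limma-voom called any, and DESeq2 called 2 lower, beside 8.46% of all genes. An edgeR p under 0.05 before adjustment was found for 4, 2 in each direction, beside 23.3% of all genes. With edgeR, 3 were called higher without cuprizone replicate 32, beside 2.77% of all genes, and 1 (Hes5) was called lower without cuprizone replicate 31, beside 5.44%. Nfix, a nuclear factor of glial maturation, was at 659, 732 and 611 CPM in cuprizone, against 1029.9, 875 and 1005 CPM in control (-0.54 ± 0.16, SE, edgeR adjusted p = 0.101). Hes5, a Notch target, was at 12.3, 21.7 and 10.5 CPM in cuprizone, against 26.7, 29.9 and 24.7 CPM in control (-0.87 ± 0.27, edgeR adjusted p = 0.109). For both genes each cuprizone value was below each control value, as in 17.6% of all tested genes. The opposite pattern was seen in 2 others of the 18, and in 12.6% of all tested genes.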
